A study of Mus musculus with 367 samples.

Results

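Rgs5 mural cells of healing mouse wounds were compared between post-wounding day 12 and the later days 15 and 21. A cell was taken as mural when it had an Rgs5 level of at least 500 FPKM and a Tyrobp level under 50 FPKM, with at most 15% of its summed FPKM on mitochondrial genes and at least 2000 genes above 0. FPKM give a transcript's sequenced fragments per kilobase of its length and relative to all fragments of the cell. Members were thus chosen by their measured Rgs5 and Tyrobp levels, mitochondrial share and genes above 0. The rule took 60 of the 367 cells, and 305 cells passed the limits on mitochondrial genes and on genes above 0. All cells came from Sm22-Cre;tdTomato mice of mixed background that received full excisional back wounds of 1.5 by 1.5 cm. The labels give their age at wounding as 3 to 8 weeks, while the paper's methods give a narrower range that also ends at 8 weeks. Sm22-Cre expresses Cre recombinase from the promoter of Tagln, which encodes the actin-binding protein SM22, so tdTomato labels any cell in which that promoter has been active, and the label does not tell a cell's present state. Sorted viable tdTomato-high cells were captured singly on a C1 microfluidic chip, in 3 captures at day 12 (PWD12), 2 at day 15 (PWD15) and 2 at day 21 (PWD21), with no unwounded or unlabelled group. At each time point the wounds of 2 to 3 mice were combined. The capture is the replicate here. It is not stated that captures came from different mice, so each p rests on the spread between captures, which may be technical.

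Mural cells, the pericytes of capillaries and the smooth muscle cells of larger vessels, sit on the outer side of the endothelium and regulate its calibre and leakiness. Endothelial PDGF-B recruits them through the receptor PDGFRB, and the receptor NOTCH3 supports their maturation. In wound granulation tissue they cover newly formed capillaries. RGS5, by which the cells were chosen, speeds up the switching off of heterotrimeric G proteins and thereby damps the signals of vasoactive receptors.

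PWD12 captures 1, 2 and 3 held 9, 7 and 16 mural cells. PWD15 capture 1 held 18 and PWD15 capture 2 held 1, while PWD21 capture 1 held 9 and PWD21 capture 2 held 0. Captures with at least 3 mural cells were used, which left 3 captures with 32 cells at day 12 and 2 captures with 27 cells later, so each later day is represented by a single capture and the spread of a day cannot be told apart from that of a capture. The share of mural cells among kept cells was 20.9%, 14.3% and 43.2% in the PWD12 captures. It was 24.7% and 3.70% at PWD15 and 25.7% and 0% at PWD21, where 0 of 41 cells allows a share of up to 8.60%, the upper limit of the interval described next. Exact binomial 95% intervals, which cover counting error only, ran from 27.1% to 60.5% in PWD12 capture 3 and from 5.94% to 27.2% in PWD12 capture 2. The mean share was 26.2% ± 15.2 (SD, n = 3) at day 12 and 13.5% ± 13.6 (SD, n = 4) later, a difference of 12.6 percentage points (two-sided exact permutation test, p = 0.286, with 0.0286 as the smallest p that 35 assignments allow). Without PWD12 capture 3 the difference was 4.09 points. In sorted cells this share also depends on which cells the gate and the chip let through.

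Mural cells were sequenced to unequal depth. The files hold no counts, so depth was inferred from the smallest spacing of FPKM values in each cell and is an estimate. The median was 2225490, 1896440 and 1195090 fragments per mural cell in the PWD12 captures, 852131 in PWD15 capture 1 and 1927020 in PWD21 capture 1. The median number of genes above 0 was 5608, 6358 and 5122 at day 12, 4239 in PWD15 capture 1 and 5835 in PWD21 capture 1. The mean over captures was 659 genes higher at day 12 (two-sided exact permutation test, p = 0.5, with 0.1 as the smallest p that 10 assignments allow), and without PWD15 capture 1 it was lower by 139 (-139). Y-linked RNA (Ddx3y and Eif2s3y together at 10 FPKM or more) was found in 7, 0, 9, 6 and 0 mural cells of the 5 captures in the order above. Xist at 10 FPKM or more was found in 0, 3, 1, 4 and 4, so male and female mice were unequally represented among the captures. In PWD15 capture 1, 1 mural cell had both at these levels, and whether its chamber held RNA of more than 1 cell was not tested. Il2rg and Slc25a5, described below, lie on the X chromosome, and the part of sex in any difference was not tested.

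The markers fixed for mural cells were present in most of the cells, and cells without them were found at day 12 as well as later. Cells of PWD21 capture 1 with little of them are described with Col1a1 below. Notch3 was above 0 in 55 of the 60 mural cells, with a median of 15.7 FPKM, against 13 of 204 matrix fibroblasts of all captures (Col1a1 of at least 1000, Rgs5 under 100 and Tyrobp under 50 FPKM), whose median was 0. Mcam, an adhesion molecule also called CD146, was above 0 in 52 of 60 mural cells with a median of 71.7 FPKM and in 32 of 204 fibroblasts. In the 5 captures, in the order above, Notch3 was above 0 in 8 of 9, 7 of 7, 15 of 16, 16 of 18 and 8 of 9 mural cells. For Mcam it was 8 of 9, 6 of 7, 13 of 16, 18 of 18 and 6 of 9. Pdgfrb had a median of 68.8 FPKM in mural cells and 8.60 FPKM in fibroblasts. Pdgfra, the fibroblast receptor of the same family, had medians of 0 and 21.4 FPKM. Pericyte channel and mitochondrial genes were high as well. The mean level of Higd1b, a mitochondrial protein of the hypoxia-induced family, was 690, 507 and 833 FPKM in the PWD12 captures, 885 FPKM in PWD15 capture 1 and 296 FPKM in PWD21 capture 1. Cox4i2, an alternative subunit of cytochrome c oxidase, had means of 295, 230, 504, 423 and 435 FPKM in the same order. Kcnj8 and Abcc9, which together form a vascular ATP-sensitive potassium channel, ranged between captures from 89.3 to 638 FPKM and from 12.4 to 68.3 FPKM. Des (desmin) and Cspg4 (NG2) were uneven, with capture means of 2.03 to 121 FPKM and 1.75 to 37.7 FPKM.

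Rgs5, by which the cells were chosen, is given as a description only. Its median was 6817, 8549 and 7951 FPKM in the PWD12 captures, 7134 FPKM in PWD15 capture 1 and 2433 FPKM in PWD21 capture 1. The means were closer, at 7783, 7149, 6809, 8193 and 6161 FPKM. Of the 60 cells, 46 had more than 3000 FPKM. The cells just above the limit had 610, 678 and 684 FPKM and those just below it 420, 201 and 176 FPKM, with 1 cell between 201 and 610 FPKM. Notch3 had capture means of 35.8, 16.7 and 21.9 FPKM at day 12, 32 FPKM in PWD15 capture 1 and 21.3 FPKM in PWD21 capture 1, and the groups overlapped. Its difference, PWD12 minus later on the scale log2(mean FPKM + 1) that is used for every difference below, was -0.14 ± 1.08 (SE, limma, adjusted p = 0.985). For Mcam the means were 105, 128, 187, 205 and 45.8 FPKM, and the difference was 0.48 ± 0.83 (limma adjusted p = 0.927). For Pdgfrb they were 113, 52.5, 255, 80.6 and 131 FPKM, with a difference of 0.16 ± 0.84 (limma adjusted p = 0.981). With standard errors of 0.83 and more, only very large day differences in these receptors would have been detectable with 5 captures.

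**Figure D1:**
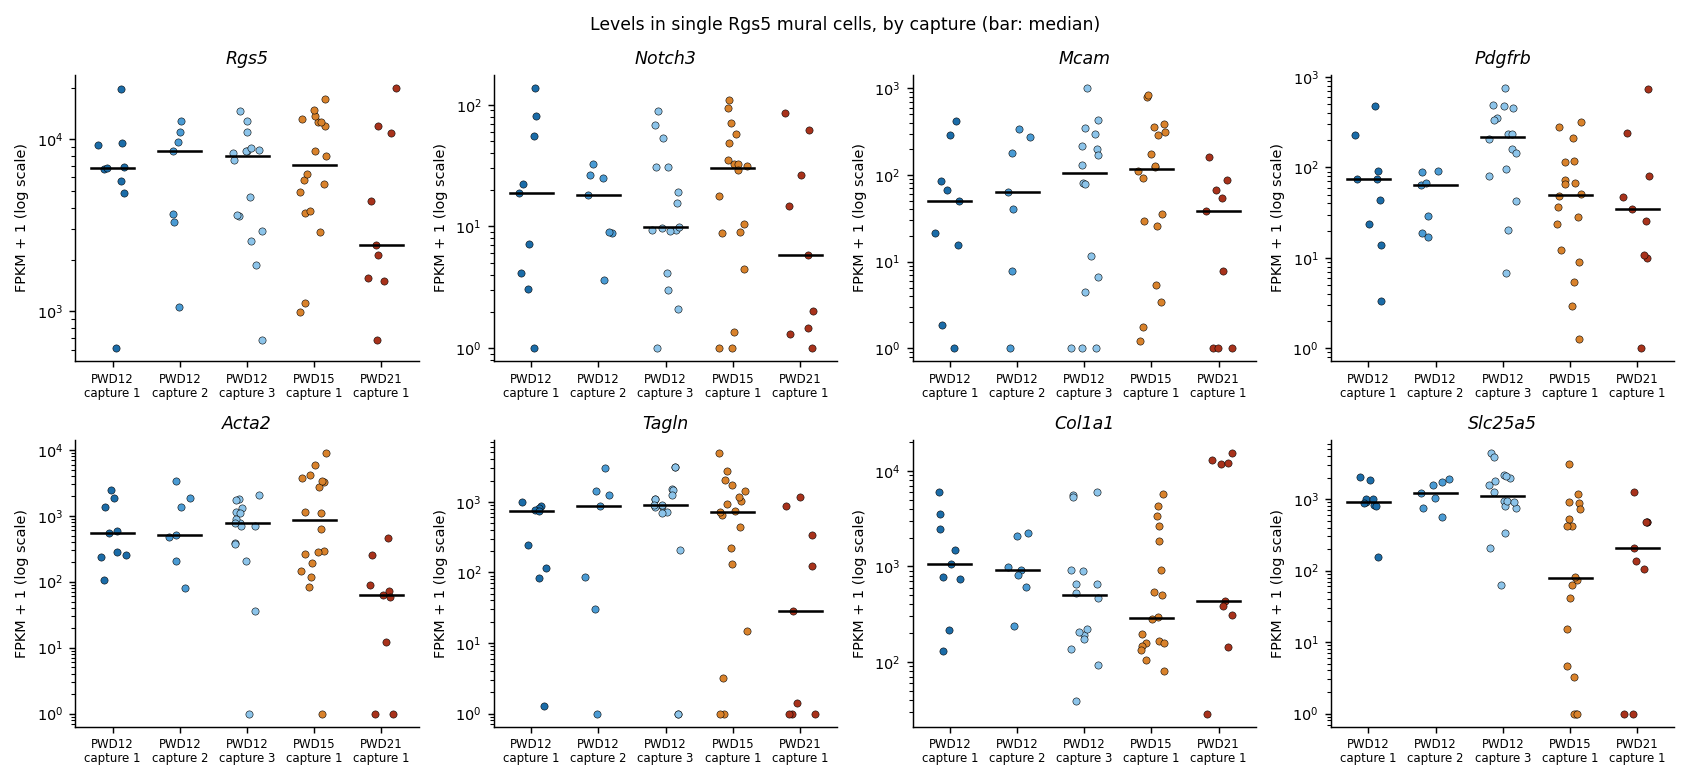
Levels of 8 genes in single Rgs5 mural cells (FPKM + 1 on a log axis) for the 3 captures of day 12 and the captures of day 15 and day 21 that were used, with 1 point per cell and a bar at the median. Rgs5, Notch3, Mcam and Pdgfrb overlap between days, Acta2 and Tagln are low in PWD21 capture 1, 4 cells of PWD21 capture 1 stand apart for Col1a1, and most cells of the PWD12 captures lie above the medians of the later captures for Slc25a5.

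Acta2 and Tagln were lowest in PWD21 capture 1. Acta2, which encodes smooth muscle actin, had means of 851, 1132 and 880 FPKM at day 12. It was at 2023 FPKM in PWD15 capture 1, above every PWD12 capture, and at 112 FPKM in PWD21 capture 1, below every one. Of the mural cells, 5 of 9, 4 of 7 and 11 of 16 had 500 FPKM or more at day 12, as did 10 of 18 in PWD15 capture 1 and 0 of 9 in PWD21 capture 1, where the highest cell reached 459 FPKM. Tagln followed with means of 519, 948, 1112, 1051 and 281 FPKM, although the cells were sorted for a label that its promoter had switched on. It was listed at 0 in 0 of 9, 1 of 7 and 2 of 16 cells at day 12. Later it was listed at 0 in 2 of 18 cells of PWD15 capture 1 and 3 of 9 of PWD21 capture 1. The fitted differences were 0.99 ± 0.83 for Acta2 and 0.59 ± 0.58 for Tagln (limma adjusted p = 0.884 for both). Without PWD21 capture 1 both changed sign, to -1.10 and -0.36. In matrix fibroblasts of the same captures Acta2 was at 370, 573 and 118 FPKM at day 12 and at 29.6 and 21.5 FPKM later (limma interaction of cell kind and day -2.50, adjusted p = 0.916). The mural cells of PWD15 capture 1 thus held the highest Acta2 level of the 5 captures, and the fibroblasts of that capture one of the lowest. Over the list of 33 contractile genes tested, the summed level was 7021, 8085 and 8743 FPKM at day 12, 9776 FPKM in PWD15 capture 1 and 3380 FPKM in PWD21 capture 1. The median difference of the list was 0.18, against 0.13 for all genes, and moved to -0.82 without PWD21 capture 1 and to 1.35 without PWD15 capture 1. Of the 33 genes, 6 (18.2%) were higher in every PWD12 capture and 1 (3.03%) lower, against 10.8% and 8.44% of all genes. Among mural cells with Col1a1 below 3000 FPKM, 4 (12.1%) were higher and 2 (6.06%) lower, near the 15.0% and 6.001% of all genes. At an unadjusted p under 0.05, 2 were higher at day 12 and 0 lower, against 2.49% and 1.99% of all genes. They were Rasl12, a Ras-like GTPase, and Actg2, the enteric smooth muscle actin, which was at 146, 317 and 139 FPKM at day 12 and at 143 and 8.07 FPKM later, with overlapping groups.

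Some mural cells also held much Col1a1, and unequally between captures. Col1a1, the main chain of type I collagen, was at 3000 FPKM or more in 2 of 9, 0 of 7 and 3 of 16 mural cells at day 12, in 3 of 18 in PWD15 capture 1 and in 4 of 9 in PWD21 capture 1. In the 4 cells of PWD21 capture 1 it ran from 11792 to 15439 FPKM, near the fibroblast mean of that capture, 12944 FPKM. The other such cells, of 12 in all, reached at most 6055 FPKM, where the median of all fibroblasts was 7100 FPKM. Those 4 cells had Rgs5 between 1500 and 2433 FPKM and a median Dcn, the proteoglycan decorin, of 3733 FPKM. In them Notch3 was at most 1.04 FPKM, and Mcam was listed at 0 in 2 of the 4 and reached 53.5 FPKM. Pdgfrb was above 0 in all 4, at 9.04 to 33.35 FPKM. Its median in them was 17.3 FPKM, against 8.60 FPKM in all fibroblasts and 78.6 FPKM in the 5 other mural cells. They were taken as mural by the rule, and the other markers do not settle their kind. The 5 other mural cells of that capture had a median Rgs5 of 10857 FPKM, a median Dcn of 0 and Notch3 from 4.88 to 84.5 FPKM. Acta2 was low in both, with 500 FPKM reached by 0 of the 4 and 0 of the 5 cells and means of 55.8 and 157 FPKM. The 3 cells of PWD12 capture 3 with high Col1a1 (5276 to 5988 FPKM) were like those 4 cells in Rgs5, 684 to 2945 FPKM, and in median Dcn, 3222 FPKM. Their Notch3 was 1.99 to 8.88 FPKM and their Mcam 5.72 to 79.6 FPKM. Whether the chambers of cells with high Col1a1 held RNA of more than 1 cell was not tested. The list of fibroblast markers had summed medians of 5516, 3643 and 1882 FPKM per mural cell at day 12, 2326 FPKM in PWD15 capture 1 and 2062 FPKM in PWD21 capture 1, and its highest cell reached 49696 FPKM in the last. Because of these cells, gene calls and list medians were also computed on mural cells with Col1a1 below 3000 FPKM, a limit chosen after seeing the data.

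**Figure D2:**
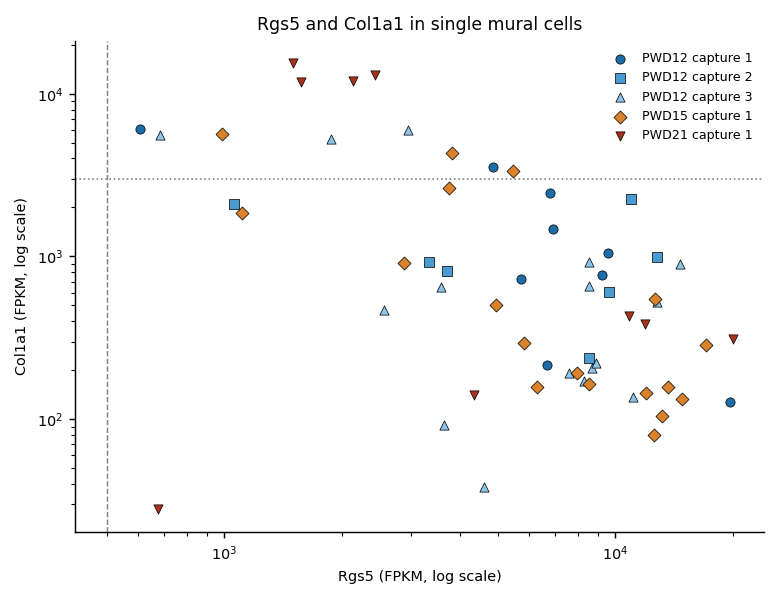
Rgs5 (horizontal, FPKM, log axis) against Col1a1 (vertical, FPKM, log axis) in the single mural cells of the 5 captures, with the rule's Rgs5 limit of 500 FPKM dashed and 3000 FPKM of Col1a1 dotted. Cells above the dotted line have at most 5478 FPKM of Rgs5, and the 4 with the most Col1a1 belong to PWD21 capture 1.

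Defining markers of other cell kinds were at 0 in most mural cells, with single cells as exceptions. Of the 59 mural cells of the 5 captures, 0 had Fcer1g, C1qa or Ptprc above 0, and Lyz2 was above 0 in 5 with a highest value of 59.5 FPKM. Cd68 was above 0 in 3 cells, up to 749 FPKM. Of the endothelial markers Cdh5 and Cldn5 were at 0 in every cell, Kdr reached 2.06 FPKM and Pecam1 15.2 FPKM, while Emcn was at 10 FPKM or more in 5 cells. Krt5, a keratinocyte gene, was at 0 in every cell. In the myeloid list 6 of 20 genes were abundant enough to test, in the endothelial list 9 of 20 and in the list of other kinds 4 of 27, and their median differences were 0.13, 0.19 and -0.99. H2-Ab1 came from 1 cell of PWD21 capture 1 (mean 199 FPKM), Kit from 3 cells there (77.8 FPKM), and Cd93 was at most 10.3 FPKM in any capture.

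Across all genes, 12909 had a mean of at least 1 FPKM in mural cells and were tested with limma on 1 value per capture. None passed an adjusted p of 0.05 (0 of 12909, 0% in each direction), and the lowest adjusted p was 0.558. At an unadjusted p under 0.05, 321 genes (2.49%) were higher and 257 (1.99%) lower at day 12. In 1389 genes (10.8%) all 3 PWD12 captures lay above both later ones and in 1090 (8.44%) below both. The median difference of all genes was 0.13, so the typical gene was slightly higher at day 12. This median was 0.63 among cells with Col1a1 below 3000 FPKM, where again no gene passed, and single values are to be read against these medians. Across genes, capture means correlated with r = 0.65 to 0.68 within day 12 and with r = 0.65 to 0.68 between PWD12 captures and PWD15 capture 1. PWD21 capture 1 stood apart, with r = 0.56 to 0.60 against every other capture. These correlations are over 12909 genes, which are not independent of each other, and each capture mean rests on 7 to 18 cells.

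Among genes above 0 in at least 50% of the mural cells of the higher group, the 15 with the lowest unadjusted p in each direction are described, none of which passed the adjusted test. Slc25a5, the adenine nucleotide translocase that exchanges ADP for ATP across the inner mitochondrial membrane, had means of 1046, 1256 and 1510 FPKM at day 12 and of 469 and 352 FPKM later. Its medians over cells were further apart, at 915, 1205 and 1100 FPKM against 76.9 and 208 FPKM, and it was above 0 in all 32 cells of day 12 and in 22 of 27 later cells. The difference was 1.63 ± 0.44 (limma adjusted p = 0.884). Acaa2, a thiolase of mitochondrial fatty acid oxidation, was at 319, 376 and 141 FPKM against 4.16 and 54.9 FPKM, a difference of 3.92 ± 1.01. Alad, which makes porphobilinogen in haem synthesis, was at 93.3, 35.1 and 174 FPKM at day 12, at 1.44 FPKM in PWD15 capture 1 and listed at 0 in PWD21 capture 1. The adjusted p of these genes was between 0.624 and 0.884 (limma).

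Of the others, Nars, the asparaginyl-tRNA synthetase, was at 128, 128 and 197 FPKM against 28 and 7.07 FPKM. Eif2b2, a subunit of the exchange factor of translation initiation factor eIF2, was at 30.3, 143 and 84.2 FPKM against 3.62 and 1.56 FPKM. Rtcb, the ligase that joins the exons of spliced tRNA, was at 34.7, 77.5 and 56.9 FPKM against 1.53 and 1.87 FPKM. That their groups do not overlap follows from how they were chosen.

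Trappc2l, a subunit of the TRAPP vesicle-tethering complexes, was at 137, 142 and 243 FPKM against 16.3 and 13.9 FPKM, a difference of 3.40 ± 0.87 (limma adjusted p = 0.836). Tppp3, which promotes tubulin polymerization, was at 43.2, 118 and 83.1 FPKM against 5.32 and 0.101 FPKM. Stmn1, which destabilizes microtubules, was at 291, 320 and 110 FPKM against 28.8 and 7.30 FPKM, and part of it lay in single cells described below with the cell cycle. Rasl12 was at 224, 129 and 156 FPKM against 30.7 and 0.156 FPKM. Mbnl1, a regulator of alternative splicing, was at 191, 246 and 308 FPKM against 67.3 and 15.8 FPKM.

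Naalad2, a peptidase of the glutamate carboxypeptidase family, was at 54.4, 78.5 and 84.8 FPKM against 1.05 and 0.0822 FPKM, a difference of 5.60 ± 1.2 (limma adjusted p = 0.624). It was above 0 in 24 of 32 cells at day 12 and 4 of 27 later. Il2rg, the common gamma chain of interleukin receptors, was at 135, 203 and 106 FPKM against 21.5 FPKM in PWD15 capture 1 and was listed at 0 in PWD21 capture 1. The cells with Il2rg did not carry Ptprc, which was at 0 in every mural cell. Pold4, a subunit of DNA polymerase delta, and Tmem39a completed the set, with differences of 3.93 ± 1.13 and 3.90 ± 1.09.

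Of the genes lower at day 12, Sept4, a septin, was the most abundant, at 99.0, 402 and 453 FPKM at day 12 and 1426 and 612 FPKM later, a difference of -1.83 ± 0.68 (limma adjusted p = 0.884). Ankrd12 was at 93.0, 19.9 and 9.14 FPKM against 248 and 294 FPKM. Chd2, a chromatin remodeller, was at 11.3, 29.5 and 22 FPKM against 163 and 113 FPKM. Kmt2e was at 79.3, 103 and 74.6 FPKM against 150 and 1380 FPKM, while its medians over cells, 44.2, 71.7 and 46.2 FPKM against 52.7 and 40.02 FPKM, overlapped. Single cells carried much of such means, with 4197 FPKM of Ankrd12 in 1 cell of PWD15 capture 1 and 11970 FPKM of Kmt2e in 1 cell of PWD21 capture 1. This also occurred at day 12, where 1 cell of PWD12 capture 1 had 1002 FPKM of Tmem39a (capture mean 153 FPKM). Of the 15 genes lower at day 12, 3 (Ankrd6, Dgcr2 and Gja1) had medians over cells that were apart as well and 12 did not. Of the 15 higher genes, 11 did and 4 did not.

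Gja1, the gap junction protein connexin 43, was at 19.2, 3.31 and 78.7 FPKM against 84.2 and 459 FPKM, and with Col1a1 below 3000 FPKM its difference of -3.37 turned to 0.84. Slc12a2, the sodium-potassium-chloride cotransporter NKCC1, was at 6.13, 0.867 and 8.62 FPKM against 29.2 and 165 FPKM. Ogn, the small proteoglycan osteoglycin, was at 4.99, 1.59 and 22 FPKM against 102 and 70.01 FPKM. Ankrd6, an adaptor of Wnt signalling, was at 1.71, 1.45 and 1.47 FPKM against 30.9 and 86.8 FPKM. Its highest cells had 500 FPKM in PWD15 capture 1 and 750 FPKM in PWD21 capture 1. Arap2, Rmc1, Dgcr2, Rassf1, Ggnbp2 and the predicted genes Gm13889 and Gm10719 were the others, with differences from -4.28 to -2.69. Gm10719 came mainly from 1 cell of PWD21 capture 1 with 13763 FPKM (capture mean 1554 FPKM, against 75.4 in PWD15 capture 1). With Rgs5 of at least 1000 FPKM its difference was 0.024. For Arap2 the highest cell of PWD21 capture 1 had 3654 FPKM (capture mean 408 FPKM). None of the 30 genes passed the adjusted test.

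**Figure D3:**
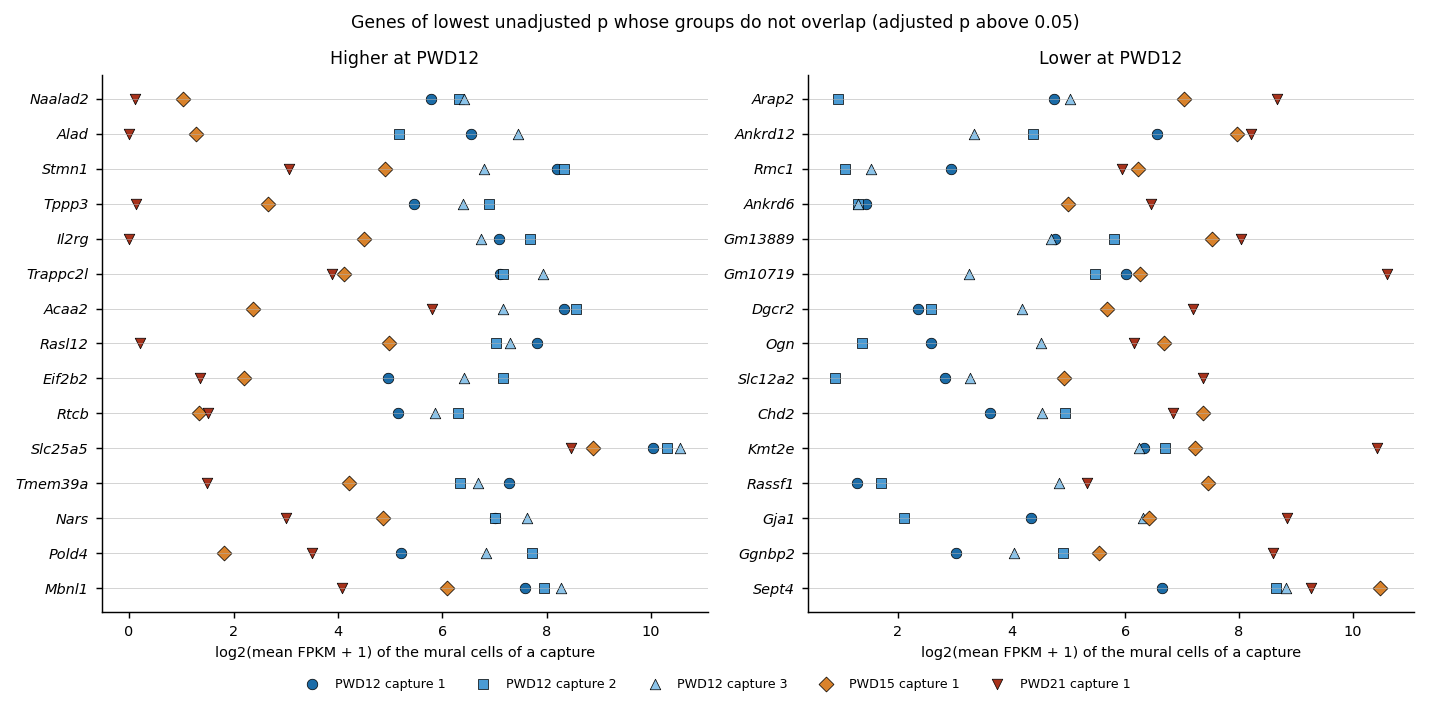
Level of the 15 genes of lowest unadjusted p in each direction, as log2(mean FPKM + 1) over the mural cells of a capture, with 1 symbol per capture. The genes were chosen because the day 12 symbols (blue) do not overlap the later ones (orange and red), and none passed an adjusted p of 0.05.

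The way cells were averaged changed the number of genes called. When the logarithm was taken in each cell before the mean, so that a few very high cells counted less and cells at 0 counted more, 15 genes passed an adjusted p of 0.05 in limma, 14 higher and 1 lower at day 12. Slc25a5 (difference 3.69, adjusted p = 0.0178), Trappc2l (4.24, adjusted p = 0.0268), Naalad2 (3.70, adjusted p = 0.0268), Il2rg (3.94, adjusted p = 0.0268), Acaa2 (4.09, adjusted p = 0.0306), Alad (3.48, adjusted p = 0.0306) and Rasl12 (3.82, adjusted p = 0.0370) were among them. Others, named because they passed here, included Mrpl58, S100a11, Serpinb6a, the pseudogenes Rpl3-ps1 and Rpl28-ps1, whose reads may come from their parent genes, and Gm22800, which was above 0 only in 5 cells of PWD21 capture 1. Serpinb6a, an intracellular protease inhibitor, had medians of 62.8, 301 and 162 FPKM at day 12, 0 in PWD15 capture 1 and 1.95 FPKM in PWD21 capture 1. On this scale the median difference of all genes was 0.20. Here limma replaced each gene's own spread between captures by a spread shared by genes of like level. The p of these 15 genes therefore does not measure each gene's own spread. Gm22800 passed although its value was 0 in PWD15 capture 1 and 5.43 in PWD21 capture 1. Among cells with Col1a1 below 3000 FPKM, no gene passed on the same scale, and the lowest adjusted p of the 15 was 0.0939 while the difference of Slc25a5 was 4.56. Cells of PWD15 capture 1 had the fewest fragments and genes above 0, and the part of depth in these calls was not tested.

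Cell cycle genes had the highest median difference of the 26 lists under the main setting, but not under every alternative. With log2 values averaged over cells their median was 0.57, under 1.72 for oxidative phosphorylation and 1.43 for ribosomal protein genes. Without 3 day 12 cells described below it was 0.83, under the 1.12 of the sex-linked list. Of 41 cell cycle genes tested, 17 (41.5%) were higher in every PWD12 capture than in both later ones and 0 were lower in all. The shares of all genes were 10.8% and 8.44%. At an unadjusted p under 0.05, 8 were higher and 0 lower, against 2.49% and 1.99% of all genes. The median difference was 1.55 against 0.13 for all genes. Without those 3 cells, 28 genes reached the mean of 1 FPKM needed for a test. Genes that reached it only through those cells could hardly come out as lower at day 12. These counts and the median were thus partly fixed by the filter. In each PWD12 capture exactly 1 mural cell had at least 20 of the 44 cell cycle genes at 10 FPKM or more, with 34, 27 and 33 such genes, while the next cell of its capture had 13, 7 and 11. In PWD15 capture 1 the highest of 18 cells had 9 genes and in PWD21 capture 1 the highest of 9 cells had 11. The limit of 20 genes was set after these values were seen. The share was thus 11.1%, 14.3% and 6.25% at day 12, and 0 of 18 and 0 of 9 cells later. By an approximate limit of 3 divided by the number of cells, these later counts allow up to 16.7% and 33.3%. A lower share at later days was therefore not detectable at these cell numbers. Matrix fibroblasts with as many cell cycle genes were found at day 12 (1 of 32, 4 of 27 and 0 of 19) and in the later captures with mural cells (2 of 50 at PWD15 and 1 of 18 at PWD21).

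These 3 mural cells, picked by their number of cell cycle genes, held genes of DNA replication and mitosis together. High levels of such genes in them therefore follow in part from how they were picked. Mki67, which coats mitotic chromosomes, was at 48.3, 28.5 and 30.6 FPKM in them and at most 0.49 FPKM in every other mural cell of the 5 captures. Top2a, the topoisomerase that untangles sister DNA, was at 242, 452 and 140 FPKM. Birc5, the survivin subunit of the chromosomal passenger complex, was at 204, 531 and 110 FPKM and at most 0.42 FPKM in every other mural cell. Tk1, which salvages thymidine for DNA synthesis, was at 198, 228 and 139 FPKM and at most 9.38 FPKM elsewhere. Prc1, which bundles microtubules of the central spindle, was at 529, 319 and 190 FPKM, and 1 other cell of day 12 reached 449 FPKM. Mki67 and Top2a were named after their values were seen. The 3 cells had Rgs5 at 6938, 3328 and 1870 FPKM and Notch3 at 6.23, 25.4 and 8.88 FPKM. The first and the second had no Pdgfra, and the third, with 5276 FPKM of Col1a1 and 58.6 FPKM of Pdgfra, was among the cells with high Col1a1. Without the 3 cells, 28 genes of the list were still abundant enough to test, 3 were higher in every PWD12 capture, 1 was higher at an unadjusted p under 0.05, and the median difference was 0.83 against 0.03 for all genes. The 3 of 28 stand against 8.93% of all genes under that setting. Thus the count of separate genes came near that of all genes without the 3 cells. These cells were left out by their cell cycle genes and all came from day 12, so part of this fall was fixed by that choice. The median of 0.83 is over 28 genes and that of 1.55 with all cells over 41, so the 2 medians do not cover the same genes. Stmn1 was at 1985, 1758 and 543 FPKM in the 3 cells, and 14 of the other 29 cells of day 12 had it at 10 FPKM or more, against 6 of 27 later.

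**Figure D4:**
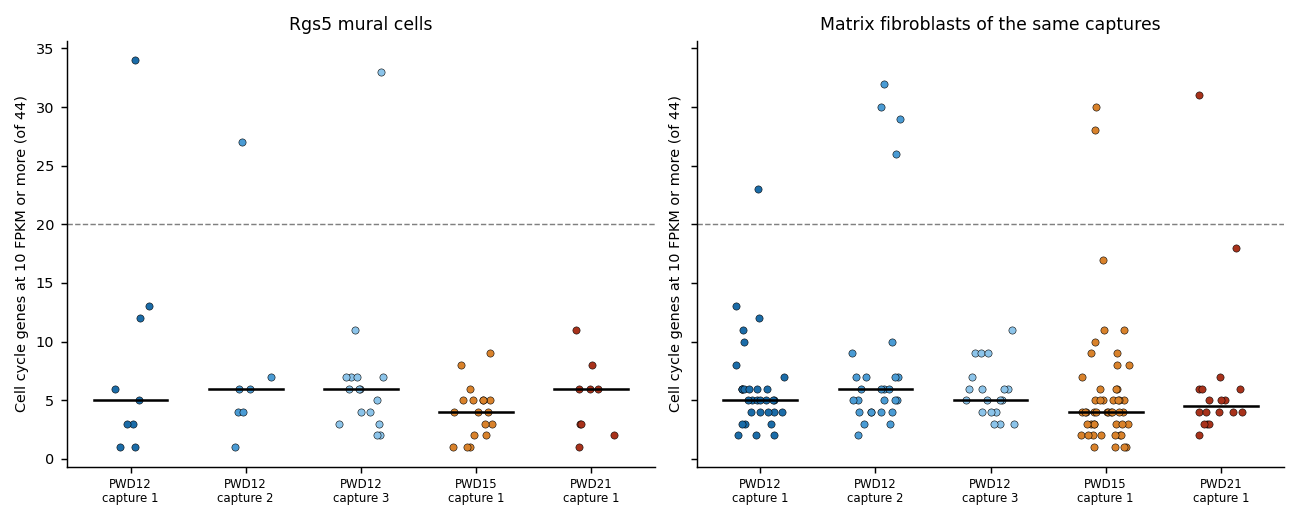
Number of the 44 cell cycle genes at 10 FPKM or more in each cell, for mural cells (left) and for matrix fibroblasts of the same captures (right), with a bar at the median and a dashed line at 20 genes. The PWD12 captures each have 1 mural cell above the line, with 34, 27 and 33 genes, and the later captures have none, while fibroblasts lie above it at each day.

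Top2a, Birc5 and Tk1 were all at 110 FPKM or more in the same 3 cells, as were Prc1, Cdk1 and Stmn1. Promoter sequences of Top2a, Birc5 and Tk1 are shown as examples. Each is the 250 bases before a transcription start in RefSeq (GRCm38.p6), 5′ to 3′ on the strand of the gene. Capitals mark CCAAT, searched on both strands and therefore also as ATTGG, the box bound by the factor NF-Y in many promoters.
Top2a, chr11:99024190-99024439, minus strand: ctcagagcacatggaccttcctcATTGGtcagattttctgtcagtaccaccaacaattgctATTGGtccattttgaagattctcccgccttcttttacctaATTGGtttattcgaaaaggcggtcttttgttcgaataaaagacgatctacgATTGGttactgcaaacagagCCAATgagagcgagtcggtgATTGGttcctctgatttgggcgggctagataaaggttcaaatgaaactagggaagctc
Birc5, chr11:117848987-117849236, plus strand: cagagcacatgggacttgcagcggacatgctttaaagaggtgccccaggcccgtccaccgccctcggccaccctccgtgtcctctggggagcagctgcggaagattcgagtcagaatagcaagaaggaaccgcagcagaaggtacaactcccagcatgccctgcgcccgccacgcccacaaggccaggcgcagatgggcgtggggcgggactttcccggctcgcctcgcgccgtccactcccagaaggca
Tk1, chr11:117826015-117826264, minus strand: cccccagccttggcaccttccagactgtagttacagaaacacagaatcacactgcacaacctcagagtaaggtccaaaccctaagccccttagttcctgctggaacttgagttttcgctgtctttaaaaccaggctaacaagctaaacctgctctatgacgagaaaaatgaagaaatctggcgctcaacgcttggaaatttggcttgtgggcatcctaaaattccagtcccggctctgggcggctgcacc
The Top2a promoter held the box 6 times, and the windows of Birc5 and Tk1 held it 0 times. Of the 36 cell cycle genes with an entry, 27 (75%) had the box in such a window, against 10133 (37.5%) of 27025 genes, where a gene was counted if any of its listed starts had it. The hexamer TTTGAA or its reverse complement TTCAAA, the core of the cell cycle homology region, was in 11 of the 36 (30.6%) and in 4934 (18.3%) of all genes. CArG boxes, which bind serum response factor, were in 5 of 31 contractile genes (16.1%) and in 439 (1.62%) of all genes. These are matches of letters and say nothing of binding in these cells.

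Lists of translation and energy metabolism had medians above that of all genes with all mural cells, but not under every alternative. Of 78 ribosomal protein genes tested, 20 (25.6%) were higher in every PWD12 capture and 0 lower, against 10.8% and 8.44% of all genes, and the median difference was 0.45. Rps19 was at 3473, 2837 and 3486 FPKM at day 12 and at 1889 and 1662 FPKM later, a difference of 0.88 ± 0.31. Rps18 was at 2787, 3662 and 3903 FPKM against 2225 and 1556 FPKM, a difference of 0.88 ± 0.32. Both had a limma adjusted p of 0.884, and ribosomal genes share reads with many pseudogenes. The summed level of the list was 73616, 82317 and 90168 FPKM at day 12, 79197 FPKM in PWD15 capture 1 and 49241 FPKM in PWD21 capture 1, and without the last the median difference was 0.05, below the 0.11 of all genes. With log2 values averaged over cells it was 1.43 against 0.20 for all genes, and among cells with Col1a1 below 3000 FPKM 0.45 against 0.63. Matrix fibroblasts showed a median difference of 0.51 for the same genes.

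Of 77 nuclear genes of oxidative phosphorylation, 13 (16.9%) were higher in every PWD12 capture and 7 (9.09%) lower, against 10.8% and 8.44% of all genes. Their median was 0.47, which moved to 0.07 without PWD21 capture 1, again below the 0.11 of all genes, and to 1.72 with log2 values averaged over cells. Ndufs7, a complex I subunit, went the other way at 214, 351 and 189 FPKM against 640 and 529 FPKM. Among 36 genes of glycolysis and the hypoxia response 6 (16.7%) were higher in every PWD12 capture and 1 (2.78%) lower, against the same shares of all genes. Their median was 0.53, with 0.22 against 0.39 for all genes without PWD15 capture 1, and 0.53 against 0.63 among cells with Col1a1 below 3000 FPKM. Pkm, the pyruvate kinase of muscle and growing cells, was at 115, 166 and 87.6 FPKM at day 12 against 24.6 and 36.7 FPKM. Bnip3l, a mitophagy receptor of the hypoxia response, was at 460, 397 and 328 FPKM against 179 and 120 FPKM. Pfkp, the platelet phosphofructokinase, was lower, at 11.8, 47.6 and 2.78 FPKM against 121 and 85.8 FPKM. In the list of 44 secretory genes the median was 0.13, equal to that of all genes, and Pdia4, a disulfide isomerase of the endoplasmic reticulum, was at 133, 130 and 66.2 FPKM against 45.2 and 5.78 FPKM.

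Matrix genes depended on the mural cells with high Col1a1. Leaving out cells by Col1a1, itself a fibrillar collagen gene, acts most on PWD21 capture 1, where 4 of 9 cells go. Part of the changes given below was therefore fixed by that choice. The 52 fibrillar matrix genes tested had a median of -0.23, with 5 (9.62%) higher in every PWD12 capture and 7 (13.5%) lower, and the 20 fibroblast markers had a median of -1.02, with 0 higher and 3 (15%) lower, against 10.8% and 8.44% of all genes. Among mural cells with Col1a1 below 3000 FPKM these medians were 1.04 and 0.50, where that of all genes was 0.63. In those cells 13 of 48 fibrillar matrix genes (27.1%) were higher in every PWD12 capture and 2 (4.17%) lower, against 15.0% and 6.001% of all genes. Col3a1, a chain of type III collagen, was at 2608, 1254 and 1780 FPKM at day 12 against 2243 and 5629 FPKM, and its difference of -0.98 ± 0.42 turned to 0.84 without those cells. Dpt (dermatopontin) was at 40.01, 9.28 and 55.4 FPKM against 115 and 180 FPKM, and Sfrp2, a secreted Wnt inhibitor, at 2.12, 0.126 and 29.2 FPKM against 35.2 and 77.1 FPKM. Col12a1, a collagen of fibril surfaces, was at 245, 125 and 46.9 FPKM against 167 and 405 FPKM. Bmp1, which cleaves procollagen, was at 109, 146 and 96.6 FPKM against 31.3 and 28.1 FPKM, a difference of 1.92 ± 0.85 (limma adjusted p = 0.884).

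Serpine2, also called protease nexin 1, which inhibits thrombin and plasminogen activators, had the lowest p of the protease list. It was above 0 in all 59 cells, at means of 4183, 5692 and 3070 FPKM at day 12 and 2325 and 1482 FPKM later, and the difference was 1.17 ± 0.34 (limma adjusted p = 0.884). Matrix fibroblasts of the same captures differed by 2.65. The list of 35 proteases and inhibitors had a median of -0.01. Of 22 basement membrane genes 3 (13.6%) were higher in every PWD12 capture and 2 (9.09%) lower, near the 10.8% and 8.44% of all genes, and their median was 0.17. Itga7, the laminin-binding integrin subunit of muscle and mural cells, was at 42.2, 49.8 and 105 FPKM at day 12 and 236 FPKM in both later captures, a difference of -1.95 ± 0.79 (limma adjusted p = 0.884). It was the only gene of 34 in the mural identity list with an unadjusted p under 0.05, and the median of that list was 0.14.

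Of 12 Notch genes tested 1 (8.33%) was higher in every PWD12 capture and 1 lower, against 10.8% and 8.44% of all genes, and Nrip2, the member with the lowest p, was at 2.16, 10.3 and 38.4 FPKM against 210 and 16.6 FPKM. Of 38 TGF-beta and BMP genes 3 (7.89%) were higher in every PWD12 capture and 2 (5.26%) lower, against the same shares of all genes. Among them Tgfb1i1 (Hic-5), a focal adhesion adaptor induced by TGF-beta, was at 312, 132 and 105 FPKM at day 12 against 31.7 and 65.4 FPKM. Id4, an inhibitor of helix-loop-helix factors, was at 0.658, 12.0 and 5.07 FPKM against 40.9 and 93.8 FPKM. In the list of vascular growth factors 4 genes of 36 were lower and 1 higher at an unadjusted p under 0.05, against 1.99% and 2.49% of all genes. In each direction 4 (11.1%) had separate groups, near the 10.8% higher and 8.44% lower of all genes. Pdgfc, Pdgfd and Hgf reached the mean of 1 FPKM needed for a test only through the later captures. They could hardly come out as higher at day 12, so the counts of lower genes were partly fixed by the filter. Among cells with Col1a1 below 3000 FPKM, 0 of 31 were lower and 1 higher at an unadjusted p under 0.05, against 175 and 513 of all 12281 genes. The PDGF ligands Pdgfc (0.110 FPKM and 0 in the other captures at day 12, 8.39 and 10.3 FPKM later) and Pdgfd (at most 0.0256 FPKM at day 12, 2.84 and 21.3 FPKM later) were low throughout. Hgf, the ligand of the receptor Met, was at most 0.578 FPKM at day 12 and at 9.27 and 6.84 FPKM later, in 4 of 18 and 1 of 9 cells. Igfbp2 was at 88.2 FPKM in PWD12 capture 3 and near 0 in the other PWD12 captures, against 90.9 and 54.3 FPKM.

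Among 31 vasoactive genes Kcnk3, a background potassium channel, was at 5.19, 48.6 and 42.5 FPKM at day 12 against 1.26 and 1.95 FPKM. The median of the list was -0.13. Of 9 RGS genes tested, the median was 0.39, and Rgs1 came from 1 cell of PWD21 capture 1 (mean 196 FPKM) and was listed at 0 elsewhere. Of 49 transcription factors 6 (12.2%) were higher in every PWD12 capture and 6 lower, near the 10.8% and 8.44% of all genes. Hopx, a homeodomain protein without DNA binding, was at 32, 35.9 and 64.5 FPKM against 19.8 and 1.03 FPKM, and Srf, the factor of CArG boxes, was at most 0.190 FPKM at day 12 against 12.4 and 4.23 FPKM.

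Inflammatory genes varied between captures of the same day. Hp, the haemoglobin scavenger haptoglobin, was at 21.7, 1748 and 38.5 FPKM at day 12, in 1, 5 and 4 cells, and was listed at 0 in all 27 later cells. Ptges, the prostaglandin E synthase, was at 43.8, 72.5 and 10.8 FPKM against 2.78 and 0.0344 FPKM. The chemokine Cxcl2 was at 0, 59.9 and 1.15 FPKM against 81.3 and 115 FPKM, and the factor Cebpd at most 0.930 FPKM against 4.95 and 25.7 FPKM. The list of 36 had a median of -0.54, which was 0.24 without PWD12 capture 1. Of 35 interferon genes 4 (11.4%) were higher in every PWD12 capture and 1 (2.86%) lower, against 10.8% and 8.44% of all genes, with H2-K1, a class I histocompatibility molecule, at 294, 206 and 334 FPKM against 97.0 and 69.9 FPKM. Immediate early genes had a median of -0.50 that turned to 0.29 without PWD12 capture 1, and Gadd45b was at 30.4, 219 and 397 FPKM against 415 and 633 FPKM. Of 22 adipogenic genes Plin2, which coats lipid droplets, was at 85.4, 168 and 383 FPKM against 199 and 1.89 FPKM. Of 20 imprinted genes Snrpn was at 63.3, 4.21 and 8.24 FPKM at day 12, at 0.275 FPKM in PWD15 capture 1 and listed at 0 in PWD21 capture 1.

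**Figure D5:**
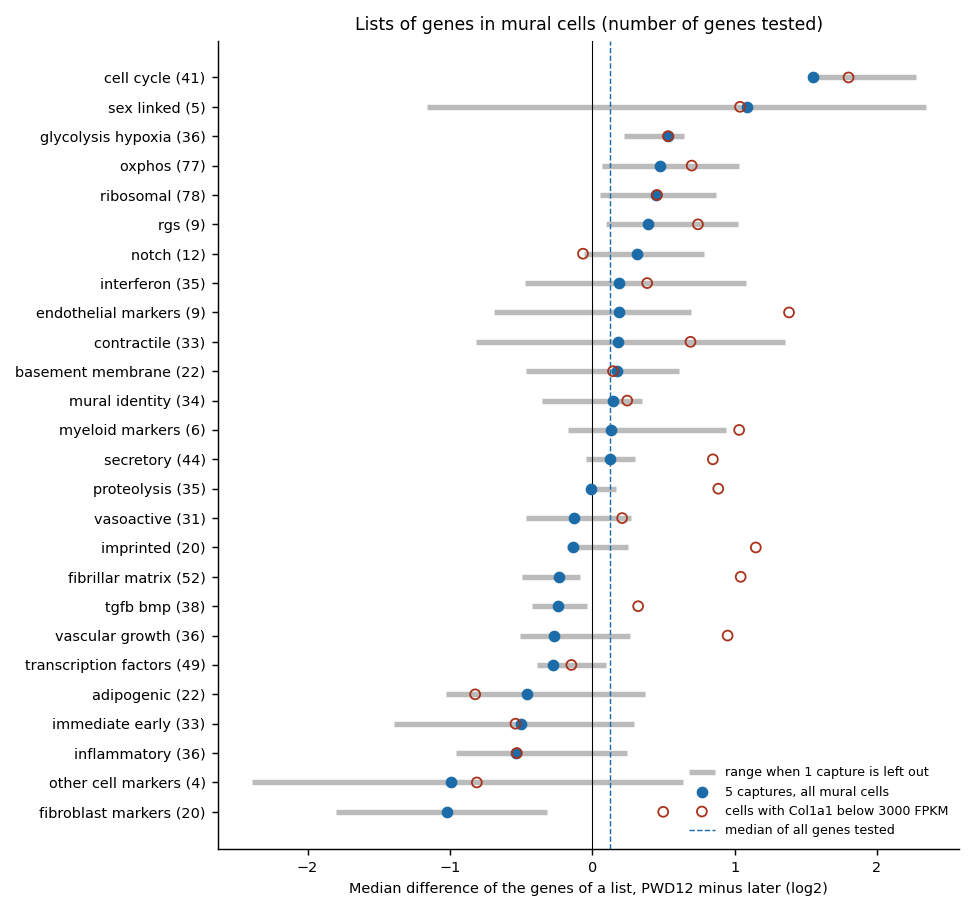
Median difference between day 12 and later (log2, PWD12 minus later) of the genes of 26 lists in mural cells, with the number of genes tested beside each name. Filled points are the 5 captures with all mural cells, grey bars the range when 1 capture is left out, open points the cells with Col1a1 below 3000 FPKM, and the dashed line the median of all genes, 0.13. Cell cycle genes lie farthest to the right at 1.55, and fibroblast markers move from -1.02 to 0.50 between filled and open points.

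The day difference of mural cells was set against that of the matrix fibroblasts of the same captures, gene by gene. None of 12909 genes differed at an adjusted p of 0.05 in limma (0%), and at an unadjusted p under 0.05, 324 (2.51%) had a more positive day 12 difference in mural cells and 351 (2.72%) a more negative one. Naalad2 had the largest value among the named genes, 7.34, with a fibroblast difference of -1.74. Prc1 and Birc5 followed at 7.04 and 6.52, with fibroblast differences of -2.44 and -1.98. In mural cells Birc5 came nearly all from the 3 cells described above. Prc1 came from them only in part, since 1 other day 12 cell had 449 FPKM. Slc12a2 had the most negative value at -5.55. Serpine2 at -1.47 and Acta2 at -2.50 had larger day 12 excesses in fibroblasts. The adjusted p of all these was 0.916 (limma), so a day difference particular to mural cells was not detectable with these captures.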

How the data were processed

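Single viable tdTomato-high cells from healing wounds were sequenced by the authors with a full-length paired-end protocol. The deposited values are FPKM per gene and cell, which the authors computed with RSEM and Bowtie 1.0.0 on mm10 with GENCODE mouse release 13. Here gene names and positions came from GENCODE release 21, in which 50376 of 50600 identifiers were found. No cell shared all its values with another (0 of 367). Depth is an estimate, since the deposited FPKM carry no counts, and no counting interval is given for a level. No column was left unused, and doublets were not called because the study kept singly captured cells. Still, 1 mural cell of PWD15 capture 1 held both Y-linked RNA and Xist at 10 FPKM or more.

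For each capture the mean FPKM over mural cells was taken as log2(mean + 1), where the average of these capture means reached 1 FPKM, and tested with limma 3.58.1 (R 4.3.3, intensity trend, Benjamini-Hochberg adjustment), PWD12 against PWD15 and PWD21 together. Such differences understate the change of low genes. Interactions used the fibroblast means of the same captures. Shares and genes per cell were tested by exact permutation over captures (scipy 1.17.1). The named genes were Rgs5, Notch3 and Mcam, the 15 protein-coding genes of lowest p in each direction with groups not overlapping and values above 0 in at least 50% of the mural cells of the higher group, and of each list those of its 4 lowest-p members with an unadjusted p under 0.05, or the lowest, besides Acta2, Tagln, Pdgfra, Pdgfrb, Col12a1 and Lyz2. Members, lists and the rule were chosen with earlier results of these data known. The scripts were tested on simulated data. Alternatives covered the pseudocount, filters, averaging, scaling, weights, cell limits and each capture left out. A few genes are not reported here.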

Additional observations from a re-analysis of the deposited data

How the results depend on the processing

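With 3 captures against 2, and 1 capture for each later day, only very large differences could pass, and a capture cannot be told apart from its day. No gene passed under the main setting or 22 of its 24 alternatives. Averaging log2 values over cells gave 15 genes, and admitting captures with at least 1 mural cell gave 3, Ubb and Gm1821 among them, which rest on a single added cell of PWD15 capture 2. At an unadjusted p under 0.05 the counts were 693 higher and 1009 lower without PWD15 capture 1, and 243 and 629 without PWD21 capture 1. The limits on Col1a1 and on fragments and the removal of cells with cell cycle genes were chosen after seeing the data. The difference in genes above 0 ranged from -139 to 1457 when captures were left out. The lists with a median above that of all genes numbered 14, and 7 to 14 when captures were left out, with 7 without PWD21 capture 1.

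The replicate number did not pair the captures (correlations of same-numbered captures -0.026, -0.0016 and -0.0032). With it as a replicate block no gene passed (0; 425 higher and 19 lower at an unadjusted p under 0.05) and the share difference was 4.09 points (exact permutation p = 0.444). Under the block, which also admits captures with 1 mural cell, differences changed sign for Mcam (-0.53), Ankrd12 (0.71), Gm13889 (0.76), Sept4 (1.87), Gadd45b (1.03), Pfkp (0.69), Pdgfrb (-0.48) and Col12a1 (1.92). Without the block but with those captures they did for Mcam (-0.11), Sept4 (1.46), Gadd45b (1.13) and Col12a1 (0.69).

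Other signs changed with log2 averaging for Notch3 (0.32), Kmt2e (0.36) and Col3a1 (0.053), with Col1a1 below 3000 FPKM for Gja1 (0.84), Col3a1 (0.84) and Pdgfrb (-0.49), and with both for Mcam (-0.19), Kmt2e (0.77), Gja1 (0.10), Col3a1 (1.30) and Col12a1 (1.06). A limit of 4000 genes gave 0.041 for Notch3, an Rgs5 limit of 1000 FPKM gave 0.024 for Gm10719, and weighting by cell number gave 0.32 for Pdgfra. With captures left out the ranges were -0.43 to 0.14 for Notch3, -0.59 to 1.55 for Mcam, -0.17 to 5.94 for Plin2, -0.41 to 0.72 for Pdgfrb, -1.10 to 3.07 for Acta2, -0.36 to 1.54 for Tagln and -1.26 to 0.51 for Pdgfra. The cause of these changes was not tested.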
